A study of Mus musculus with 6 samples.

Results

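The cytochrome P450 enzymes of the Cyp2c subfamily and Cyp3a25 were examined in RNA-seq of mouse colon from animals exposed long term to PFOA (perfluorooctanoic acid, a fluorinated surfactant that persists in the environment). Every row of the deposited count table whose gene name is a Cyp2c gene or Cyp3a25 was taken, which gave 7 gene names in 6 rows out of 2033 rows, because Cyp2c67 and Cyp2c68 share a row. Cyp2c55, Cyp2c65, Cyp2c66 and Cyp3a25 were higher in the PFOA libraries, and the row of Cyp2c67 and Cyp2c68 and the row of Cyp2c23 were lower. The comparison set 3 control libraries against 3 PFOA libraries of colon tissue (replicates 1 to 3 in each group). The sources used here do not give strain, genotype, sex, age, dose, route, length of exposure or part of the colon. Per the labels, frozen tissue came from 6 mice in each group, and which mice entered which library is not stated. Replicates are therefore separate libraries of a group, and p-values measure only the spread between them, which may be technical.

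Cytochromes P450 are haem enzymes of the endoplasmic reticulum that insert oxygen into lipophilic molecules. CYP2C enzymes oxidise arachidonic and linoleic acid, mostly to epoxides and hydroxy acids, and also metabolise drugs, while CYP3A enzymes oxidise steroids, bile acids and a wide range of drugs. In liver and gut, the xenobiotic receptors PXR and CAR, which pair with RXR, regulate many genes of both subfamilies. Cyp2c55 is known as a CYP2C enzyme of the mouse colon, Cyp2c65 and Cyp2c66 as enzymes of the gastrointestinal tract, and Cyp2c40, a close relative of Cyp2c67 and Cyp2c68, as an intestinal arachidonic acid hydroxylase. Cyp2c23, formerly Cyp2c44, is an arachidonic acid epoxygenase best known from kidney and liver, and Cyp3a25 is a CYP3A enzyme of liver and intestine.

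The members fall into groups of near copies, which matters for how reads are assigned to them. The stretch of coding sequence below begins at the first codon of the haem-binding loop, the most conserved signature of a P450, and is shown to let the copies be compared. It was found by a script in GENCODE M21 transcripts (mm10) through the translated pattern F..G.R.C.G and is 60 bases long. It spans the junction of exons 8 and 9 in the Cyp2c genes and lies in exon 12 of Cyp3a25. Capitals mark bases that differ from Cyp2c67 at the same place of the stretch.
Cyp2c67: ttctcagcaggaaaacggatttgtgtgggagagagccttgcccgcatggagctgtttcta
Cyp2c68: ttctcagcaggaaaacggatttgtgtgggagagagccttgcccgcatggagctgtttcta
Cyp2c40: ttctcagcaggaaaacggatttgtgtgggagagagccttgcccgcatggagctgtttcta
Cyp2c66: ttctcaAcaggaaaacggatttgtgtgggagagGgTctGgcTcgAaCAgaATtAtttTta
Cyp2c65: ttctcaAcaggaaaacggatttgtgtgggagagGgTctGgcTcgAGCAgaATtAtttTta
Cyp2c55: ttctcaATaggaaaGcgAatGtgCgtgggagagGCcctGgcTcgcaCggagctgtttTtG
Cyp2c23: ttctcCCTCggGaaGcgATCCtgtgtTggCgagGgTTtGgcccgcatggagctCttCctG
Cyp3a25: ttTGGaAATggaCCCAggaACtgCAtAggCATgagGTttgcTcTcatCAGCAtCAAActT

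In this stretch Cyp2c68 and Cyp2c40 did not differ from Cyp2c67, Cyp2c66 differed at 12 bases, Cyp2c65 and Cyp2c55 at 13 each, Cyp2c23 at 19 and Cyp3a25 at 32. Over the whole coding sequence, Cyp2c67 and Cyp2c68 shared 97.1% of aligned bases and Cyp2c65 and Cyp2c66 shared 96.3%, whereas Cyp2c55 shared 75.1% with Cyp2c65 and 72.0% with Cyp2c67. Of the windows of 50 consecutive bases in the Cyp2c65 transcript, 20.6% also occur in transcripts of another gene, mostly Cyp2c66, and for Cyp2c66 the share was 24.0%, all with Cyp2c65. For Cyp2c67 it was 52.8%, shared with Cyp2c40, Cyp2c69 and Cyp2c68. For Cyp3a25 it was 26.8%, shared with Cyp3a59 and Cyp3a57. The transcript of Cyp2c55 shared only 0.514% of such windows and that of Cyp2c23 shared 0 of 1867. Read length and the treatment of reads that map to several places are not stated. Counts of Cyp2c65, Cyp2c66, Cyp3a25 and the Cyp2c67 group are therefore uncertain between close copies. By their reference transcripts, Cyp2c55 and Cyp2c23 are little affected by this. The deposited row of Cyp2c55 has 20989 bases, against 1995 of its transcript, and the rest of that row was not examined for shared sequence.

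Beyond the sequence, the deposited positions show which genes each row holds (mm10, chromosome 19 unless stated). Cyp2c55 lies at 39006881 to 39042693 on the plus strand, Cyp2c65 at 39061015 to 39093944 and Cyp2c66 at 39113898 to 39187072. The row named Cyp2c67 and Cyp2c68 runs on the minus strand from 39608830 to 39866564. It carries the identifier of Cyp2c40 as well, contains the whole of Cyp2c67, Cyp2c68 and Cyp2c40 and covers 54.0% of the annotated Cyp2c69, so its counts belong to this group of near copies and not to Cyp2c67 or Cyp2c68 alone. Cyp2c23 lies apart at 44005022 to 44029199 on the minus strand, and Cyp3a25 lies on chromosome 5 at 145977194 to 146009618 on the minus strand. GENCODE M21 annotates 15 protein-coding Cyp2c genes, of which 6 are named in a row and 7 are found by identifier. Of 9 protein-coding Cyp3a genes, 2 have a row, Cyp3a25 and Cyp3a44. A gene without a row is not analysed here and is not shown to be unchanged.

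The table holds only rows in which these groups differ. Judged by the ratio of mean raw counts, PFOA exceeded control in 1035 rows and fell short of it in 998, and log2 ratios from -1.08 to 0.92 are absent. In edgeR's quasi-likelihood test with Benjamini-Hochberg adjustment at 0.05, 100% of the 1608 rows tested were called, 50% of them higher and 50% lower. The listed counts summed to between 1771120 and 2269892 per library, which is not the sequencing depth, and scaled counts below are counts per 1000000 (CPM) of these sums after TMM scaling. All 6 member rows passed the filter on low counts and were called, 4 higher and 2 lower, which in a table selected on this contrast only describes their direction. The same holds for non-overlap: scaled counts of the groups did not overlap in 6 of 6 member rows, against 97.1% of all rows. The median log2 fold change of the 6 rows was 4.73, or 4.22 with Cyp3a25 at the lower bound given below. As 4 rows were higher and 2 lower, it describes neither direction alone. Over all rows tested the median was -0.03, a value in the gap where rows are absent. By direction, it was 1.71 over the 804 tested rows that were higher and -1.80 over the 804 that were lower.

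Cyp2c55, which had the most counts of the 6 rows in every PFOA library, rose 12.2-fold. Control replicates 1, 2 and 3 held 2383, 8647 and 3163 of its reads, and PFOA replicates 1, 2 and 3 held 77437, 42284 and 48636. Control replicate 2 was high for its group and PFOA replicate 1 was the highest library, and the groups did not overlap. In scaled counts it went from 2260 ± 1672 CPM to 28034 ± 11751 CPM (SD, n = 3 per group), with a log2 fold change of 3.63 (SE 0.60, 3 libraries per group) and an edgeR adjusted p of 0.00124. Without control replicate 2 the log2 fold change was 4.40. By mean raw count it was the row of rank 82 in control and of rank 6 in PFOA, where it made up 3.55%, 1.98% and 2.14% of all listed counts.

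Cyp2c65, the next gene of the cluster, rose 56.4-fold from a much lower level. Control replicates 1 to 3 gave 68, 100 and 41 counts, and PFOA replicates 1 to 3 gave 5490, 2837 and 3101. All PFOA libraries were far above all controls, with PFOA replicate 1 again the highest. The scaled level went from 33.4 ± 14.9 CPM to 1908 ± 898 CPM (SD, n = 3 per group), with a log2 fold change of 5.84 (SE 0.52, 3 libraries per group) and an edgeR adjusted p of 1.21e-04.

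Cyp2c66, its near copy, was almost unread in control colon. Raw counts were 0, 1 and 0 in the controls, against 335, 94 and 136 after PFOA. The single control count came from control replicate 2, the control library with the most Cyp2c55 and Cyp2c65, and PFOA replicate 1 was again the highest. The ratio was 582 with a 95% Clopper-Pearson interval from 104 to 23047, which covers counting error only, and the fitted log2 fold change was 8.77 (SE 0.995, 3 libraries per group), with an edgeR adjusted p of 3.24e-04. That fitted value depends on 1 control count: leaving out control replicate 2 gave 10.64, leaving out control replicate 3 gave 8.18, and leaving out PFOA replicate 1 gave 7.93.

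The row of Cyp2c67 and Cyp2c68, which also holds Cyp2c40, fell 4.65-fold. The controls held 4657, 5352 and 5124 counts and the PFOA replicates 330, 1199 and 1630. The control libraries lay close together, while PFOA replicate 1, the library with the most Cyp2c55, Cyp2c65 and Cyp2c66, had the fewest. The scaled level went from 2394 ± 171 CPM to 501 ± 297 CPM (SD, n = 3 per group), with a log2 fold change of -2.26 (SE 0.48, 3 libraries per group) and an edgeR adjusted p of 0.00324.

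Cyp2c23 was low in all libraries and fell 4.61-fold. Counts of 14, 15 and 28 in the controls stood against 6, 6 and 0 after PFOA. The groups did not overlap, although at these counts a floor of 3 counts per library corresponds to between 1.36 and 1.61 CPM. The log2 fold change was -2.15 (SE 0.72, 3 libraries per group), with an edgeR adjusted p of 0.0191, and it was -1.54 without PFOA replicate 3. The call ended when control replicate 3 was left out (edgeR adjusted p = 0.0625), and also when replicate numbers entered the fit as a block (edgeR adjusted p = 0.0546).

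Cyp3a25 was not read in any control library. Its counts were 0, 0 and 0 in the controls, against 17, 17 and 47 after PFOA. With a floor of 3 counts for the control group as a whole, its level was at least 27.8-fold higher. PFOA replicate 3 held most of these counts, unlike the Cyp2c rows that rose, in which PFOA replicate 1 was highest. The edgeR adjusted p was 0.00152 (n = 3 per group), and the fitted log2 fold change of 7.77, which depends on the prior count and is no bound, was 7.16 without PFOA replicate 3. Its relative Cyp3a44, which lies in the same cluster at 145773983 to 145805874 on chromosome 5, rose 161-fold, from 0, 8 and 1 counts to 184, 557 and 665 counts (7.23 on the log2 scale with an SE of 0.92; edgeR adjusted p = 4.91e-04). Cyp3a44 was thus also highest in PFOA replicate 3, and per kilobase of reference transcript its PFOA level was 114 ± 56.5 CPM, beside 6.51 ± 3.87 CPM for Cyp3a25 (SD, n = 3).

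**Figure D1:**
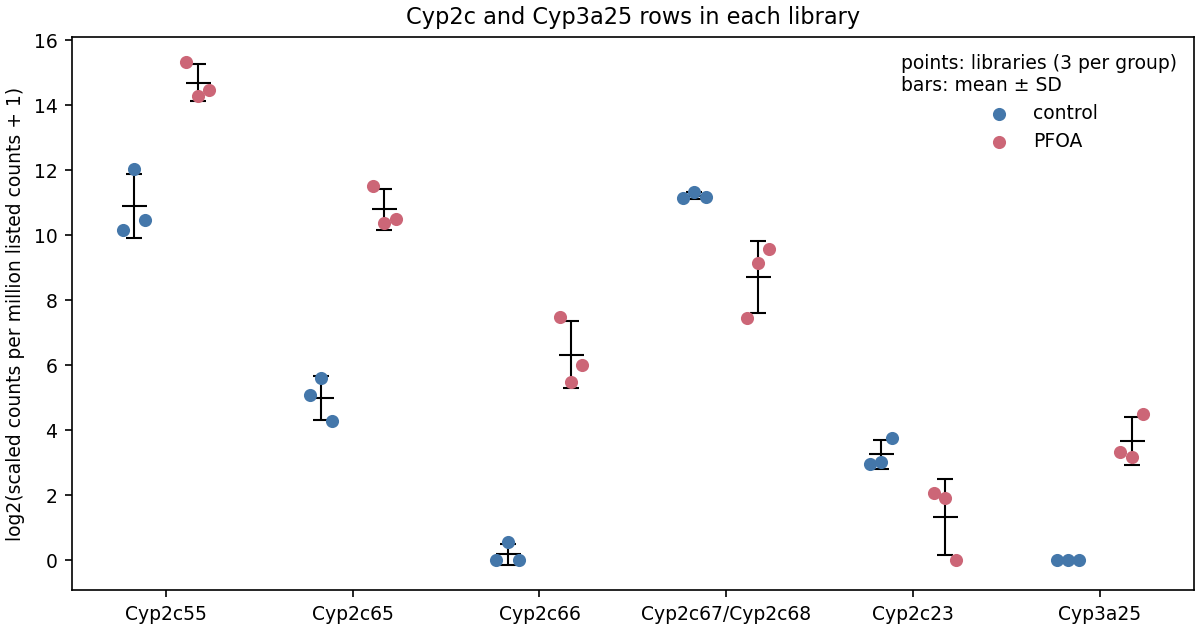
Scaled level of each member row in each library, as log2 of CPM of listed counts plus 1 on the vertical axis; points are libraries (blue control, red PFOA, 3 each) and black bars the mean ± SD. The groups are apart in every row, upward for Cyp2c55, Cyp2c65, Cyp2c66 and Cyp3a25 and downward for the row of Cyp2c67 and Cyp2c68 and for Cyp2c23.

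Because members of a family can differ in length, levels were set side by side only per kilobase of the coding reference transcript. On this scale Cyp2c55 stood at 1133 ± 838 CPM per kilobase in control and 14052 ± 5890 in PFOA (SD, n = 3 per group), Cyp2c65 at 17.3 ± 7.73 and 990 ± 466, and Cyp2c66 at 0.0990 ± 0.171 and 58.7 ± 44.9. Cyp2c23 stood at 4.66 ± 1.71 CPM per kilobase in control and 1.05 ± 0.916 in PFOA, and Cyp3a25 at 0 and 6.51 ± 3.87. The order in PFOA was thus Cyp2c55, Cyp2c65, Cyp2c66, Cyp3a25 and Cyp2c23, and in control Cyp2c23 took the place after Cyp2c65. Neighbours in these orders did not overlap between libraries, except Cyp2c66 and Cyp3a25 in control, which were both at or near 0. The deposited row of Cyp2c55 has a length of 20989 bases, against 1995 bases of its reference transcript. Per kilobase of the deposited row, Cyp2c55 stood at 1336 ± 560 CPM in PFOA, and it was above Cyp2c65 in each PFOA library by 1.30, 1.37 and 1.44 times. The row of Cyp2c67 and Cyp2c68 (45249 bases in the table) was left out of this order because it holds several genes.

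The make-up of the family's counts turned over between the groups. The row of Cyp2c67 and Cyp2c68 supplied 54.9 ± 14.8% of the counts of all 6 rows in control and 2.01 ± 1.42% in PFOA, and Cyp2c55 supplied 44.2 ± 14.9% in control and 91.5 ± 0.972% in PFOA (SD, n = 3 per group). Cyp2c65 went from 0.718 ± 0.232% to 6.16 ± 0.390%. These are shares of counts without a correction for length, so that they do not rank the levels of the genes. The deposited rows have 45249 bases for Cyp2c67 and Cyp2c68, 20989 for Cyp2c55 and 1928 for Cyp2c65. The widest 95% Wilson interval of a share in a single library extended 1.10 percentage points to either side and covers counting error only. Within a library, such shares do not depend on how libraries are scaled, but they come from the same counts as the fold changes. Per count of the Cyp2c67 and Cyp2c68 row, the controls held 0.512, 1.62 and 0.617 counts of Cyp2c55, and the PFOA replicates held 234.7, 35.3 and 29.8. Cyp2c65 gained on Cyp2c55: there were 35.0, 86.5 and 77.1 counts of Cyp2c55 per count of Cyp2c65 in control and 14.1, 14.9 and 15.7 in PFOA. This ratio varied widely between control libraries and hardly between PFOA libraries.

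**Figure D2:**
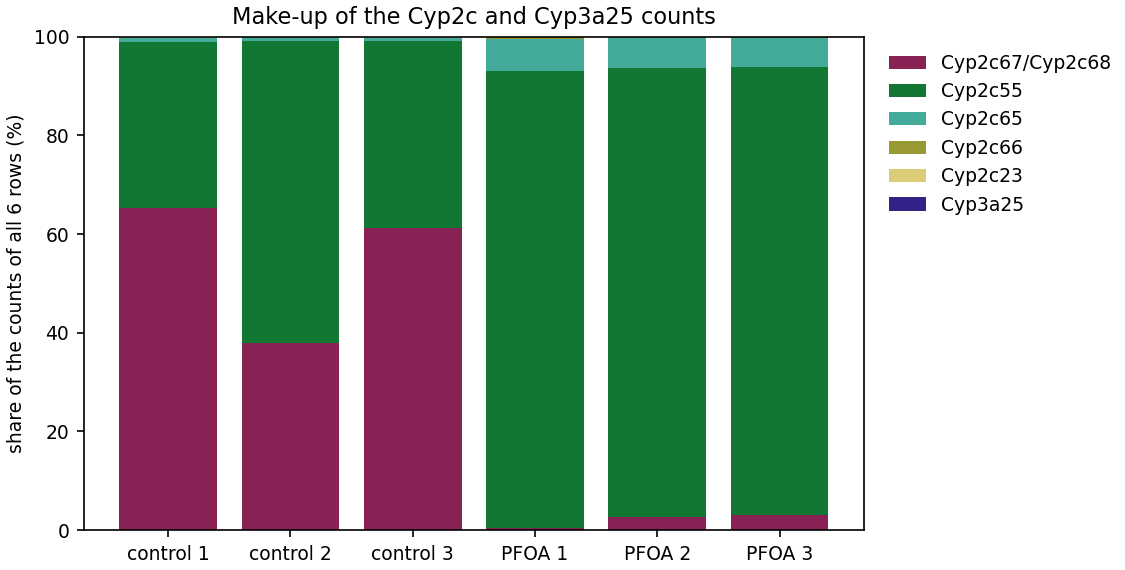
Share of each row in the summed counts of the 6 rows, in percent, for each of the 6 libraries. The Cyp2c67 and Cyp2c68 row (purple) and Cyp2c55 (green) divide the control libraries between them, while Cyp2c55 takes between 90.8% and 92.6% in the PFOA libraries and Cyp2c65 (turquoise) most of what remains.

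The genes of the cluster on chromosome 19 changed in opposite directions at its different places. Cyp2c55, Cyp2c65 and Cyp2c66, which rose, are neighbours on the plus strand, and the fold change was larger for each further gene. The row that fell lies further on, on the minus strand, beyond Cyp2c29, Cyp2c38 and Cyp2c39, which have no row. An unnamed assembled locus between Cyp2c55 and Cyp2c65 (39045282 to 39060392, plus strand) held 36, 252 and 37 reads in the controls and 1155, 560 and 372 after PFOA. Its level rose 6.62-fold (2.76 on the log2 scale with an SE of 0.87; edgeR adjusted p = 0.0151), and it was highest in control replicate 2 and PFOA replicate 1, as Cyp2c55 was. Its counts came to between 0.765% and 2.91% of those of Cyp2c55 in the same library. Another unnamed locus (39662336 to 39759772, minus strand) overlaps the Cyp2c67 and Cyp2c68 row and carries the identifier of Cyp2c68. Its counts fell 5.29-fold, from 985, 803 and 987 to 62, 160 and 287, and were lowest in PFOA replicate 1, as that row was. This locus and that row both lie on the minus strand, so a strand setting would not tell their reads apart. How reads of overlapping loci were assigned is not stated. Near Cyp2c23, the carboxypeptidase gene Cpn1 was 4.34-fold higher, so that Cyp2c23 fell beside a neighbour that rose. The other rows between the cluster and Cyp2c23 (Hpse2, Gm18379, Cnnm1 and Gm47936) were all higher in PFOA.

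**Figure D3:**
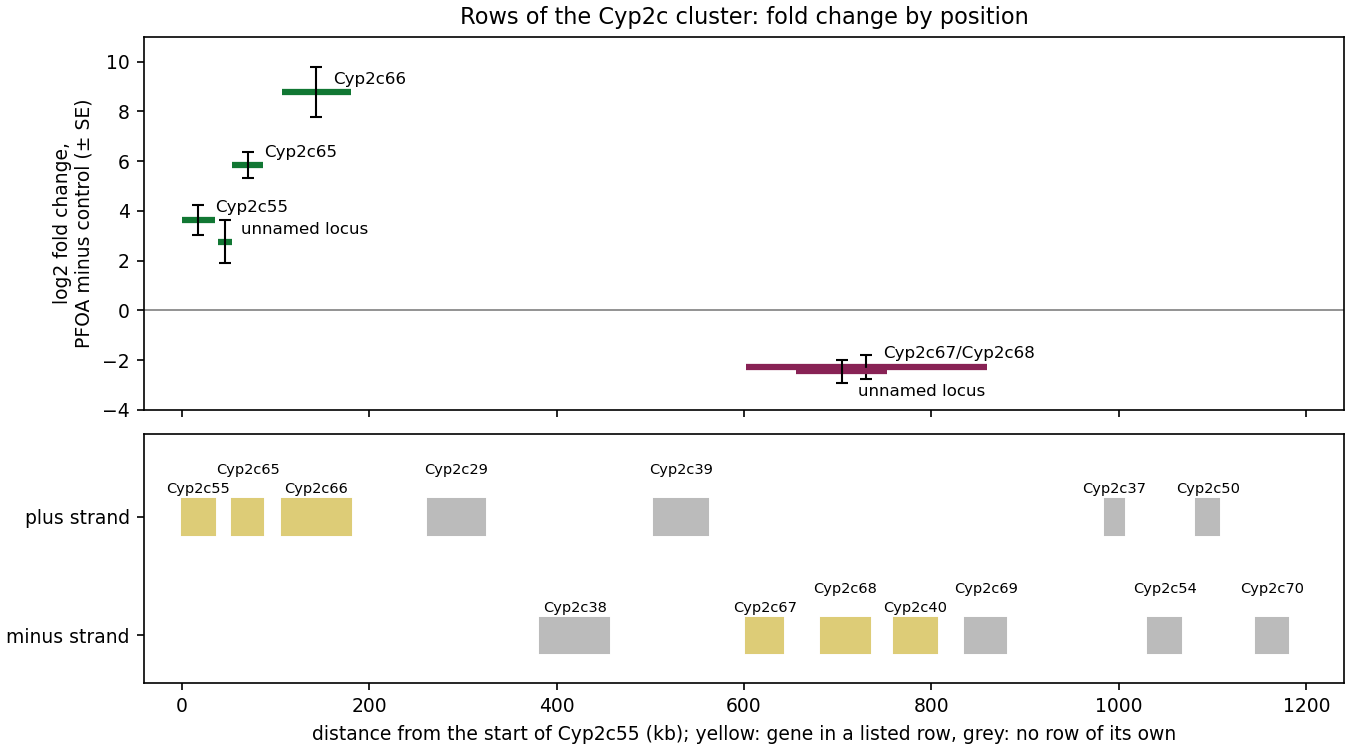
Upper panel: log2 fold change (PFOA minus control, vertical axis, bars ± SE) of the rows in the Cyp2c cluster, drawn at their extent along the chromosome in kb from the start of Cyp2c55 (horizontal axis). Lower panel: protein-coding genes on either strand, yellow where a listed row holds them by name or identifier and grey where none does; the plus-strand rows at the left rose and the minus-strand rows beyond the unlisted genes fell.

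The 200 bases before the start site show whether members that moved together share letters there. They were taken from RefSeq (GRCm38.p6, which is mm10), where 6 of the 7 member names have an entry and Cyp2c23 has none. Capitals mark matches, on either strand, to AGGTCA (half-site of nuclear receptors), TATAAA (an element of core promoters), CAAAGTC (core of an HNF4 site), GTTAAT (half-site of HNF1) and TTTATNG (CDX site). Windows are shown for the 3 genes that rose together, for Cyp2c67 and Cyp2c68 and for the first of the start sites of Cyp3a25. They lie at chr19:39006819-39007018 (plus strand), chr19:39060806-39061005 (plus), chr19:39113698-39113897 (plus), chr19:39649043-39649242 (minus), chr19:39741102-39741301 (minus) and chr5:146009619-146009818 (minus).
Cyp2c55: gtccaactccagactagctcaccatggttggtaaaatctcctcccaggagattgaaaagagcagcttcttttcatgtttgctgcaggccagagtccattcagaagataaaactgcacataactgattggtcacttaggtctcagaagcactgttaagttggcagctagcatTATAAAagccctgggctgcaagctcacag
Cyp2c65: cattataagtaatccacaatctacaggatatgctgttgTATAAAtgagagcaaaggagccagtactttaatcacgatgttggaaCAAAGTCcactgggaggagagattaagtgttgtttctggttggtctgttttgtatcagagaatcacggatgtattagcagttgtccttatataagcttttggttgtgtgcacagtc
Cyp2c66: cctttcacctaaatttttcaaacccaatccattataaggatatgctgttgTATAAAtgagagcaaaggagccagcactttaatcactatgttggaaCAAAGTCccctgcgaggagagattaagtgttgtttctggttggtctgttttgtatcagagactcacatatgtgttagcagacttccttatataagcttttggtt
Cyp2c67: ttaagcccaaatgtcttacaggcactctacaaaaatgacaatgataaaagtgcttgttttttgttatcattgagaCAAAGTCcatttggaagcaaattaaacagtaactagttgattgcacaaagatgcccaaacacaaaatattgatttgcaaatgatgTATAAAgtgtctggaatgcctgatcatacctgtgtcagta
Cyp2c68: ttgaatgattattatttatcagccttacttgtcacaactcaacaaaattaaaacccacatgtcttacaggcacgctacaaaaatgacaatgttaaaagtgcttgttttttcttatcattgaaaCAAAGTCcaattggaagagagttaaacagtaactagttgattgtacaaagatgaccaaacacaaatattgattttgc
Cyp3a25: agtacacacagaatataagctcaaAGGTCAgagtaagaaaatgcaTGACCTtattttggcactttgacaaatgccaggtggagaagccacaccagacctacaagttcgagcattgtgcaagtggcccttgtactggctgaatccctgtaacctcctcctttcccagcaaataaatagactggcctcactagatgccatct

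CAAAGTC, the core of sites bound by the gut and liver factor HNF4, was matched in Cyp2c65 and Cyp2c66, which rose, and also in Cyp2c67 and Cyp2c68, which fell, on the strand of each gene. It was also matched in Cyp2c40 and Cyp2c69, and it was not in the window of Cyp2c55 or Cyp3a25. Of all 32851 start-site windows of the same length, 3.03% held it. A match of this core therefore did not separate the members by direction. TATAAA was matched with its first base at -29 in Cyp2c55 and at -40 in Cyp2c67, and further from the start in Cyp2c65 (-162) and Cyp2c66 (-150), beside 9.96% of all windows. AGGTCA was matched once on each strand in Cyp3a25 (11.4% of all windows) and in no Cyp2c window. TTTATNG was in no member window (7.73% of all windows), and GTTAAT was matched in Cyp2c40 alone (5.06%). Windows of Cyp2c65 and Cyp2c66 shared 88.8% of aligned bases and those of Cyp2c67 and Cyp2c68 shared 92.1%, so that matches within a pair of copies are not independent. Such matches describe letters and are not evidence of binding.

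The other cytochromes P450 in the table went both ways. Apart from the members, 20 rows of CYP genes were listed, 10 higher and 10 lower, and of the 16 tested, 7 were called higher and 9 lower, with a median log2 fold change of -1.71. Cyp4b1, a fatty acid hydroxylase, was 63.6-fold higher, in the range of Cyp2c65, but PFOA replicate 1 was its lowest PFOA library (748 counts, against 3433 and 3596). Cyp2j6, an arachidonic acid epoxygenase of the gut, rose 2.88-fold, Cyp2w1, known from developing gut and colon tumours, rose 4.29-fold, Cyp4f40, a relative of leukotriene hydroxylases, rose 2.15-fold, and Cyp26b1, which clears retinoic acid, rose 1.97-fold. Cyp2d26 rose 4.66-fold, while the other 7 of 8 Cyp2d rows were lower: Cyp2d41-ps (16.7-fold), Cyp2d12 (10.7-fold), Cyp2d10 (4.43-fold), Cyp2d9 (4.27-fold), Cyp2d34-ps (4.16-fold), Cyp2d37-ps (3.30-fold) and Cyp2d34 (3.22-fold), of which some rows are merged with a neighbouring gene. Cyp2f2, best known from airway club cells, fell 17.8-fold and Cyp2a12 fell 8.92-fold. Among rows too low to be tested, Cyp2j8, Cyp4f15 and Cyp24a1 were higher and Cyp4f39 was lower. The 31 counts of Cyp24a1, the enzyme that inactivates vitamin D, all came from PFOA replicate 1. In the deposited annotation, 8 rows carry the term epoxygenase P450 pathway, 3 of them higher and 5 lower, and 4 of the 8 are members (Cyp2c55 and Cyp2c65 higher, Cyp2c23 and the Cyp2c67 and Cyp2c68 row lower).

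**Figure D4:**
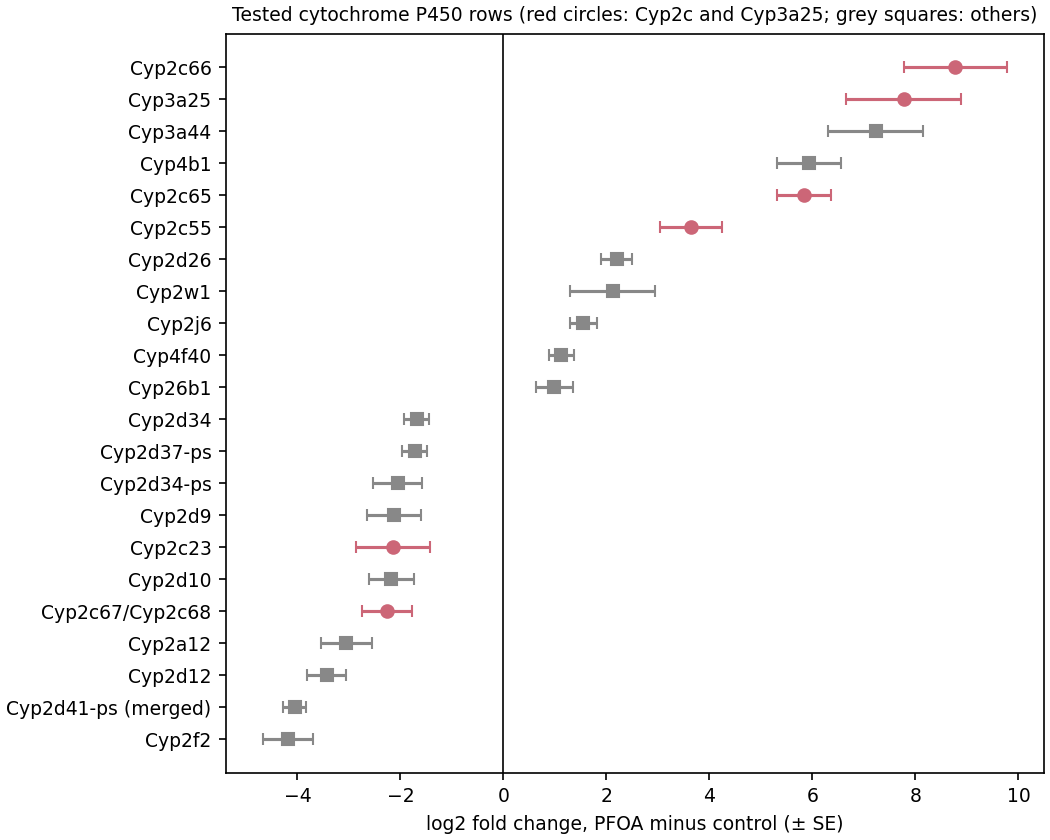
Log2 fold change (PFOA minus control, horizontal axis, bars ± SE) of the 22 CYP rows tested, ordered by size; red circles are the Cyp2c and Cyp3a25 rows and grey squares other CYP rows. Cyp2c66, Cyp3a25, Cyp2c65 and Cyp2c55 stand near the top with Cyp3a44 and Cyp4b1, and the Cyp2c67 and Cyp2c68 row and Cyp2c23 stand among the Cyp2d rows.

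Partners and regulators of P450 genes, a list of 41, had 7 rows, of which 5 rose and 2 fell (median log2 fold change 2.07). Ppara, the receptor for fatty acids and fibrates, rose 5.42-fold, and Pparg, its relative of fat storage and colon epithelium, rose 4.14-fold. Foxa2, a forkhead factor of gut and liver, fell 4.44-fold, and Nr1h4, the bile acid receptor FXR, rose 3.28-fold. Nr1i3, which encodes CAR and was named here after its values were seen, fell from 182, 175 and 162 counts to 62, 16 and 7 (-2.50 on the log2 scale with an SE of 0.72; edgeR adjusted p = 0.0110). Nr1i2, which encodes PXR, and Por, the reductase that feeds electrons to these enzymes, have no row.

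Genes of arachidonate and epoxide metabolism, a list of 49, had 6 rows, of which 1 rose and 4 fell among the 5 tested (median log2 fold change -1.44). Fads2, the desaturase on the way to arachidonate, fell 5.89-fold, the reductase Akr1b3 fell 2.74-fold, the secreted phospholipase Pla2g10 fell 2.35-fold and the lipoxygenase Alox15 fell 4.18-fold. Pla2g4c, a phospholipase, went from 23, 21 and 31 counts to 42, 1249 and 174, so that its rise lay mostly in PFOA replicate 2; it was named after its values were seen. Other xenobiotic genes of phase I to III, a list of 99, had 28 rows, of which 19 rose and 8 fell among the 27 tested (median log2 fold change 1.68). Those with the smallest p were Ces1g and Ces1f, carboxylesterases (81.9-fold and 25.7-fold higher), Adh1, an alcohol dehydrogenase (12.3-fold lower), and the row of the glucuronosyltransferases Ugt2b5 and Ugt2b38 (216-fold higher). Target genes of PPAR-alpha, a list of 48, had 8 rows, all of which rose (median log2 fold change 3.06). Acaa1b, a peroxisomal thiolase, rose 23.5-fold, Me1, malic enzyme, 2.79-fold, and Vnn1, a pantetheinase, 8.08-fold.

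Likeness to Cyp2c55 was ranked by Pearson correlation of log2 CPM over the 6 libraries, among other tested rows with a single reference symbol. Rows without a symbol or with merged names were not ranked. The most alike were Cdx2 (0.998), a transcription factor of intestinal identity, Adora2b (0.995), an adenosine receptor, and Fabp2 (0.993), the intestinal fatty acid binding protein. B4galnt2 (0.992), a glycosyltransferase, and Urad (0.992), an enzyme of urate breakdown, came next. The libraries form separate groups and share their scaling, so that high values are common: the median over the 800 other tested rows higher in PFOA was 0.910. Like Cyp2c55, Fabp2 was highest in control replicate 2 (134, 874 and 314 counts) and in PFOA replicate 1 (9290, 4755 and 4402 counts).

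Marker genes of colon position also differed between the groups. Of 16 markers of the proximal colon, a list that includes Cyp2c55, 8 rows other than that of Cyp2c55 were listed, 7 higher and 1 lower, and their summed level lay between 2311 and 3036 CPM in control and between 15300 and 18392 CPM in PFOA. Of 15 markers of the distal colon, 13 had rows, 12 lower and 1 higher, and their summed level lay between 16642 and 23628 CPM in control and between 2662 and 5328 CPM in PFOA. The exceptions were Ggh of the proximal list (13.5-fold lower in PFOA) and Car12 of the distal list (14.1-fold higher). Slc51a, a bile acid transporter subunit, went from 17, 4 and 2 counts to 1363, 1670 and 1458, and Hoxb13, a homeobox gene of the hindgut, from 9884, 5730 and 7988 counts to 0, 6 and 3; both were chosen for mention after their values were seen. As the part of the colon is not labelled, a difference in position between the groups and an effect of PFOA cannot be told apart for any member. In bulk tissue, fewer cells of a type and less RNA per cell cannot be told apart either.

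Markers of other tissues and cells did not form a common direction. Of 31 hepatocyte markers, which included other Cyp2c and Cyp3a genes, 4 had rows, 2 lower and 2 higher. Alb, the main liver product, went from 38, 46 and 20 counts to 0, 0 and 1, and Ttr was 17.7-fold lower. Hp, haptoglobin, went from 2, 3 and 2 counts to 12, 3 and 34, and Ambp, a plasma protein precursor, from 6, 14 and 8 counts to 18, 21 and 36. Both were highest in PFOA replicate 3, the library with the most Cyp3a25. Within the PFOA group, Ttr was instead highest in PFOA replicate 1 (53, 16 and 28 counts), and the single Alb count came from PFOA replicate 3. The summed level of the hepatocyte rows lay between 172 and 491 CPM in control and between 18.8 and 46.2 CPM in PFOA, and without Ttr it overlapped (13.6 to 30.5 CPM in control, 11.3 to 33.1 CPM in PFOA). Of 21 small intestinal markers, 8 had rows, 6 higher and 2 lower, and their summed levels overlapped (4956 to 5413 CPM in control, 3890 to 6863 CPM in PFOA). Most of the control sum was Slc15a1, a peptide transporter that was lower in PFOA, and without it the sums lay apart, at 623 to 1352 CPM in control and 3630 to 6504 CPM in PFOA. Nts, neurotensin, and Reg1 were at 0 in all control libraries. Of 21 colon epithelial markers, 9 had rows, 3 higher (Car1, Cdx2 and Muc2, the last in 3 rows) and 6 lower, with overlapping summed levels (172369 to 301296 CPM in control, 230172 to 360566 CPM in PFOA). The 7 leukocyte rows were higher in 6 cases, although their sum was lower (642 to 1006 CPM in control and 128 to 343 CPM in PFOA). Without Ly6g, the row that was lower, it was 38.2 to 70.2 CPM in control and 123 to 313 CPM in PFOA. Adipocyte rows were higher by their mean in 6 of 6 (34.5 to 92.6 CPM and 291 to 1681 CPM), but the groups overlapped in 4 of them, as PFOA replicate 2 held 0 counts of Plin1, 0 of Adipoq, 7 of Car3 and 3 of Cfd. These 4 genes and Lpl were highest in PFOA replicate 3, the library with the most Cyp3a25. Cidec, the remaining adipocyte row, was highest in PFOA replicate 1 (366, 144 and 315 counts). Rows of red blood cells were lower in 5 of 5 (563 to 1489 CPM and 123 to 212 CPM). Pancreatic acinar rows were lower in 3 of 3 (931 to 1594 CPM and 56.0 to 69.1 CPM). Nearly all of that sum was Cela1, and without it the sums were 2.72 to 14.6 CPM in control and 0 to 0.933 CPM in PFOA. The smooth muscle row Cnn1 was lower (2553 to 5922 CPM and 1478 to 2094 CPM), and the glial row Gfap was higher (15.97 to 18.6 CPM and 49.9 to 60.7 CPM). The part of these markers in the values of the members was not tested.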

How the data were processed

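RNA from colon of control and PFOA-exposed mice was sequenced in 3 libraries per group; per the labels' protocols, libraries were made with the SMARTER mRNA-Seq kit. HISAT2, HTSeq and mm10 are named in the submitters' processing notes, without versions or order. The authors deposited a table of raw read counts per gene row with identifiers, positions and row lengths; columns were matched to samples by the labels' descriptions. No source used here gives the locus assembler, the strand setting or the rule of row selection.

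The members, lists and tests were chosen with earlier results of these data known. edgeR 4.0.16 (R 4.3.3) was run on all rows: filterByExpr kept 1608, TMM scaled the libraries, and glmQLFit with glmQLFTest compared the groups two-sided without covariates, adjusted by Benjamini-Hochberg over rows tested. The standard error is the absolute log2 fold change over the square root of F. Fold values are ratios of summed counts over summed scaled totals (control over PFOA for rows that fell), with a floor of 3 counts over a group without counts. Log2 CPM used a prior count of 2. Named genes were all members, other CYP rows and rows between members on chromosome 19 or within 500 kb of Cyp3a25. Also named were the 4 smallest p per pathway list and the 5 tested rows with a single reference symbol most like Cyp2c55. One gene that this rule names is not reported here. On simulated counts for 1608 rows with 200 changed, the edgeR step called 22.9% of 2-fold and 84.7% of 4-fold changes and 3 unchanged rows. Most simulated rows were unchanged and all shared a common dispersion, whereas every tested row of the real table was called. These rates therefore do not carry over to the real table, and TMM scaling was not checked in a table of this kind. No pair of replicates agreed within sampling noise (smallest chi-square per degree of freedom 22.4). Alternatives were DESeq2 1.42.0, limma-voom (limma 3.58.1), library totals alone, other filters, the replicate number as a block and each library left out.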

Additional observations from a re-analysis of the deposited data

How the results depend on the processing

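All 4 members called higher remained called under all 12 alternatives: log2 fold changes ranged from 3.17 to 4.40 for Cyp2c55, 5.35 to 6.17 for Cyp2c65, 7.85 to 10.64 for Cyp2c66 and 5.66 to 8.04 for Cyp3a25, whose lowest values came from limma-voom for the last of these and for Cyp2c66. The row of Cyp2c67 and Cyp2c68 kept its call, from -2.69 to -1.88. Over the whole table, the alternatives called 721 to 1033 rows higher and 799 to 998 lower, of 1608 to 2033 tested. Most rows tested were thus called in each of them, so that a kept call is not particular to the members. Members called lower numbered 1 with the replicate number as a block, where Cyp2c23 stood at -2.15 (edgeR adjusted p = 0.0546), and 1 to 2 with a library left out. Cyp2c23 ranged from -2.74 to -1.54. Raw mean counts or library totals turned no ratio around, and shares without Cyp3a25 moved by less than 1 SD. Both outcomes were all but fixed beforehand and are no check of the results. The smallest ratio was 4.61-fold in a table selected on this contrast, and Cyp3a25 supplied 0% of member counts in control and 0.048% in PFOA. Deviations of same-numbered libraries correlated at 0.114, -0.031 and 0.102, and those of differently numbered libraries at -0.149 to 0.117. With 3 libraries per group, these values cannot decide whether replicate numbers pair the samples. Low counts limit Cyp2c23, Cyp2c66 in control and Cyp3a25, and shared transcript sequence limits all members but Cyp2c55 and Cyp2c23. The part of the Cyp2c55 row outside its reference transcript was not examined for shared sequence.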
